A study of Glycine soja and Glycine max with 13 samples.

Results

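The 7 wild soybean lines of the series (Glycine soja, the wild relative of the crop) had all been sampled as whole seeds at 13 days after flowering, yet they fell far apart in the transcript of glycinin, a main storage protein of the soybean seed. The lines of each set were chosen by the measured level of 1 glycinin gene, Glyma.03G163500, in counts per 1 M counts of the library (CPM). Lines above 300 CPM are called advanced here and lines below 300 CPM early. The advanced set held 4 lines (ys1, ys23, ys26 and ys17) and the early set 3 lines (ys34, ys29 and ys16), 7 of the 13 lines measured. The other 6 lines were cultivated (Glycine max; df12, df17, df43, df3, df36 and df14) and were not used to make the split. No line was treated, all plants grew in fields, and a line was sequenced once. The spread within a set is therefore a spread between lines, in which genotype, sampling and library cannot be told apart. The labels record no stage of filling, no hour of sampling and no number of plants per sample, so the names of the sets describe glycinin alone.

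A soybean seed first forms its parts by cell division and then fills. During filling the embryo builds up globulins, protease inhibitors, lectin and lipoxygenases as protein reserves, and triacylglycerol as oil, while the seed coat around it passes on sugars from the mother plant and makes flavonoid pigments. Transcription factors of the LEC1, ABI3 and FUS3 families are known to drive this programme.

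The split rests on a wide gap. Glyma.03G163500 stood at 11760 CPM in ys1, 6498 CPM in ys23, 5624 CPM in ys26 and 1434 CPM in ys17, against 7.17 CPM in ys34, 6.82 CPM in ys29 and 6.01 CPM in ys16. The advanced line nearest the threshold therefore had 1434 CPM and the early line nearest to it 7.17 CPM. Of 11 glycinin and β-conglycinin genes listed, 9 had rows in the table, and 6 of them were higher in every advanced than in every early line. These globulin genes define the split or accompany the gene that does, so they are given no test and enter no count below. Together the 9 genes took 0.959 to 4.595% of the counts of an advanced line and 0.00266 to 0.0513% of those of an early line. The early lines were not alike in them: a β-conglycinin α gene (Glyma.20G148400) had 6.05 CPM in ys34, but 244 CPM in ys29 and 147 CPM in ys16. These CPM, and all that follow, are also scaled by TMM factors, which even out differences in library makeup. A second α gene (Glyma.20G148300) read 6.12, 245 and 147 CPM in the same lines and may share reads with the first.

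Library size did not separate the sets. Totals ran from 15.8 to 18.1 M counts in advanced lines and from 13.9 to 23.6 M in early lines (exact permutation test, two-sided p = 0.743, where 0.0571 is the smallest p that 4 against 3 lines allow). A gene with 0 counts could hold up to 3 at these totals by counting error alone, which is 0.127 to 0.216 unscaled CPM. The 8 most abundant features took 19.1 to 24.3% of counts in advanced lines, against 39.2% in ys34, 30.7% in ys29 and 20.1% in ys16. Their part in the results was not tested beyond leaving these features out, which gave 179 genes higher and 27 lower in place of the 177 and 24 below. In bulk seeds, fewer cells of a kind and less RNA per cell cannot be told apart.

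Of 31770 genes tested outside the globulins, 177 were called higher and 24 lower in the advanced lines, or 0.557% and 0.0755% (edgeR, adjusted p under 0.05). Over all genes the directions were nearer to balance: 2548 (8.02%) were higher and 1997 (6.29%) lower without overlap between the sets, and 16253 of 31770 had a positive difference. Since the lines were sorted by a transcript from the same libraries, a call here describes these 7 lines and is not evidence that an age or a treatment acted on them. The 177 higher genes had a median fold of 7.51, and 73 of them were at least 10-fold higher. The 24 lower genes had a median fold of 3.03, and 1 of them reached 10-fold. In 46 of the 177 higher genes the early lines averaged under 1 CPM. The 177 genes together took 1.23 to 3.03% of the counts of an advanced line and 0.148 to 0.304% of those of an early line. They were picked as higher in these same libraries, so the direction of that gap follows from the choice.

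The count of called genes depended on single lines. It was 29 higher and 1 lower without ys29, 32 and 0 without ys34, 56 and 0 without ys1, and 90 and 9 without ys23. It was 350 higher and 81 lower without ys16, and 446 and 133 without ys17. DESeq2 called 1314 higher and 503 lower (4.14% and 1.58%), and limma voom 80 and 8 (0.252% and 0.0252%). At an unadjusted p under 0.05 edgeR had 4649 genes in either direction, or 14.6%, the share to set beside the unadjusted counts of the lists below. Beside the adjusted calls of the lists stand 0.557% higher and 0.0755% lower by edgeR. For DESeq2 these shares are 4.14% and 1.58%, and for limma voom 0.252% and 0.0252%.

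Seed protein genes outside the globulins had the largest median difference of the other 11 lists. All 10 listed genes of this kind were tested, 10 of 10 were higher in every advanced than in every early line (8.02% of all genes were), and 9 of 10 were called higher. The count was 2 without ys29 or ys34, 5 without ys1 and 5 without ys16 and ys26, and 10 without ys17. The median log2 difference of the list was 7.41, beside 0.01 over all genes. Gene names were attached to published identifiers, with no annotation at hand to test them.

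Le1 (Glyma.02G012600), which encodes the seed lectin, had 2394 CPM in ys1, 2384 CPM in ys23, 986 CPM in ys26 and 163 CPM in ys17, against 2.93 CPM in ys34, 3.86 CPM in ys29 and 2.04 CPM in ys16. The log2 difference was 8.98 with a standard error (SE) of 1.11. KTI3 (Glyma.08G341500), the Kunitz trypsin inhibitor, had 5071, 5171, 2360 and 1693 CPM in the advanced lines in the same order, against 60.6, 105 and 301 CPM in ys34, ys29 and ys16. Its log2 difference was 4.52 (SE 0.74). P34 (Glyma.08G116300), a protease-like allergen, had 960, 866, 852 and 113 CPM in the advanced lines, against 1.93, 2.15 and 0.9999 CPM in the early lines (log2 difference 8.71, SE 0.92). ys17 was the lowest advanced line in all of these.

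The sucrose-binding protein gene SBP1 (Glyma.10G028300), related to the vicilins, had 1057, 1067, 949 and 224 CPM in ys1, ys23, ys26 and ys17, against 2.26, 2.50 and 4.30 CPM in ys34, ys29 and ys16. Its relative SBP2 (Glyma.02G145700) had 46.6 to 186 CPM in advanced lines and 1.07 to 2.39 CPM in early lines. The 3 seed lipoxygenases, which oxidise linoleic and linolenic acid, varied in how far ys17 lay from the other advanced lines. LOX2 (Glyma.13G347500) had 439, 278 and 488 CPM in ys1, ys23 and ys26 but only 6.55 CPM in ys17, against 0.481 to 1.14 CPM in the early lines. LOX3 (Glyma.15G026300) had 65.5 CPM in ys17 and 243 to 389 CPM in the other advanced lines, against 1.501 to 2.78 CPM in early lines. For LOX2 ys17 was nearer to the early lines than to the other advanced lines. LOX1 (Glyma.13G347600) had 4.48 to 31.9 CPM in advanced lines and 0 to 0.133 CPM in early lines. The embryo urease gene Eu1 (Glyma.05G146000) had 39.6 to 134 CPM in advanced lines and 1.73 to 6.86 CPM in early lines. BMY1 (Glyma.06G301500), the seed β-amylase, had the smallest difference of the list, with 152 to 670 CPM in advanced lines and 53.3 to 82.6 CPM in early lines (log2 difference 2.71, SE 0.50), and was not called.

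**Figure D1:**
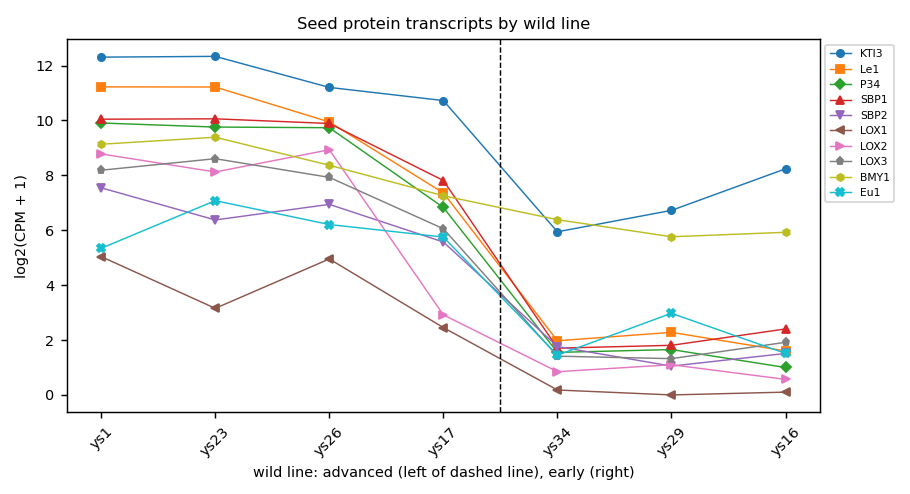
Transcript level, as log2(CPM + 1), of 10 seed protein genes in each wild line, with the 4 advanced lines left of the dashed line and the 3 early lines right of it. Each point is 1 line; KTI3 stayed at 60.6 CPM or more in early lines, and ys17 lay between the other advanced lines and the early lines for most genes.

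Among 21 measured genes of fatty acid and oil synthesis, 4 were called higher and 0 lower, beside 0.557% and 0.0755% of all genes, with a median log2 difference of 0.50. Without overlap between the sets, 7 of the 21 were higher and 0 lower in the advanced lines, beside 8.02% and 6.29% of all genes. Without ys29 0 of the 21 were called, and without ys34 or ys1 1. FAD2-1A (Glyma.10G278000) and FAD2-1B (Glyma.20G111000), the seed forms of the desaturase that turns oleic into linoleic acid, stood out. FAD2-1B had 297, 457, 197 and 134 CPM in ys1, ys23, ys26 and ys17, against 3.59, 16.9 and 12.04 CPM in ys34, ys29 and ys16 (log2 difference 4.64, SE 0.66). FAD2-1A had 46.4, 59.4, 25.9 and 21.1 CPM in the advanced lines, against 0.333, 1.07 and 1.26 CPM in the early lines (log2 difference 5.36, SE 0.55). The 2 measured FAD2-2 genes, active in many tissues, overlapped between the sets: FAD2-2B (Glyma.19G147400) had 112 to 276 CPM in advanced lines and 70.6 to 121 CPM in early lines, and FAD2-2C (Glyma.03G144500) had 87.4 to 354 CPM in advanced lines and 86.1 to 261 CPM in early lines.

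SACPD-C (Glyma.14G121400), a stearoyl-ACP desaturase tied to seed stearic acid, had 423, 409, 224 and 387 CPM in the advanced lines, against 80.5, 110 and 96.7 CPM in ys34, ys29 and ys16 (log2 difference 1.91, SE 0.27). Its relatives SACPD-A (Glyma.07G207200) and SACPD-B (Glyma.02G138100) overlapped between the sets, with log2 differences of 0.80 and 0.53. DGAT1C (Glyma.09G065300), which catalyses the last step of oil assembly, had 12.6 to 16.3 CPM in advanced lines and 4.26 to 5.65 CPM in early lines, a 2.82-fold difference. DGAT1A (Glyma.13G106100) and DGAT1B (Glyma.17G053300) differed by 0.72 and 0.56 on the log2 scale and were not called, though DGAT1B was without overlap. The oil body gene OLEO1 (Glyma.20G196600) was the least even: it had 63.7 CPM in ys1, 73.1 CPM in ys26 and 18.8 CPM in ys17 but 1.01 CPM in ys23, against 0.037 to 0.399 CPM in early lines. It was not called, with a log2 difference of 7.98 (SE 1.62). The linolenate desaturases FAD3A (Glyma.14G194300), FAD3B (Glyma.02G227200) and FAD3C (Glyma.18G062000) differed by 0.34 to 0.42 on the log2 scale, and the ketoacyl synthase KASIIB (Glyma.13G112700) by -0.04. Of these only FAD3B was without overlap, at 33.8 to 37.7 CPM in advanced lines and 25.4 to 27.4 CPM in early lines. The 4 measured FATB thioesterase genes, which release saturated fatty acids, differed by 0.09 to 0.15.

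Of 4 phytate genes, IPK1 (Glyma.14G072200), the inositol phosphate kinase that completes phytic acid, was called higher, at 16.4, 13.7, 15.5 and 9.74 CPM in ys1, ys23, ys26 and ys17, against 3.59, 4.58 and 4.78 CPM in ys34, ys29 and ys16 (log2 difference 1.67, SE 0.23). The IPK1 call was lost without ys1, ys23, ys29 or ys34, without ys16 and ys26 together, and by limma voom. MIPS1 (Glyma.11G238800), which makes the inositol precursor, had 1387, 1547, 1837 and 764 CPM in the advanced lines, against 345, 469 and 792 CPM in the early lines, and the sets overlapped, with ys16 above ys17. The 2 MRP transporter genes tied to low phytate (Glyma.19G169000 and Glyma.03G167800) had log2 differences of 0.13 and -0.01.

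By edgeR 0 of the 10 listed regulators of maturation were called, and all 10 had positive fitted differences, with a median of 0.85 on the log2 scale. ABI3-1 (Glyma.08G357600), a transcription factor of the abscisic acid response, had 139, 167, 155 and 139 CPM in ys1, ys23, ys26 and ys17, against 47.2, 47.3 and 92.0 CPM in ys34, ys29 and ys16 (log2 difference 1.26, SE 0.27). ABI3-2 (Glyma.18G176100) had 87.1 to 107 CPM in advanced lines and 25.7 to 72.5 CPM in early lines, also without overlap. The LEC1 genes, which act early in embryo development, overlapped between the sets: LEC1-2 (Glyma.17G005600) had 97.9 to 206 CPM in advanced lines, against 34.1 and 63.1 CPM in ys34 and ys29 but 131 CPM in ys16. WRI1a (Glyma.15G221600), a regulator of oil synthesis, showed the same layout, at 15.6 to 26.7 CPM in advanced lines, against 7.78 and 6.08 CPM in ys34 and ys29 and 18.7 CPM in ys16. FUS3-1 (Glyma.16G050500) was nearly even, at 61.3 to 77.9 CPM in advanced lines and 61.3 to 74.6 CPM in early lines. For LEC1, WRI1 and ABI3 genes ys16 was the highest early line. The early lines were close in Glyma.03G163500, at 6.01 to 7.17 unscaled CPM. Over the globulin genes ys34 had the smallest share of counts, at 0.00266%, against 0.0365% in ys16 and 0.0513% in ys29. The early lines were thus not ordered alike in globulin share and in these regulators. For LEC1 and WRI1 genes ys26 was the highest advanced line, and for ABI3 genes ys23 was. At an unadjusted p under 0.05 there were 5 of 10 regulators, beside 14.6% of all genes, and DESeq2 called 2 and limma voom 0. Without ys16, 3 of the 10 regulators were called higher and their median log2 difference was 1.35.

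**Figure D2:**
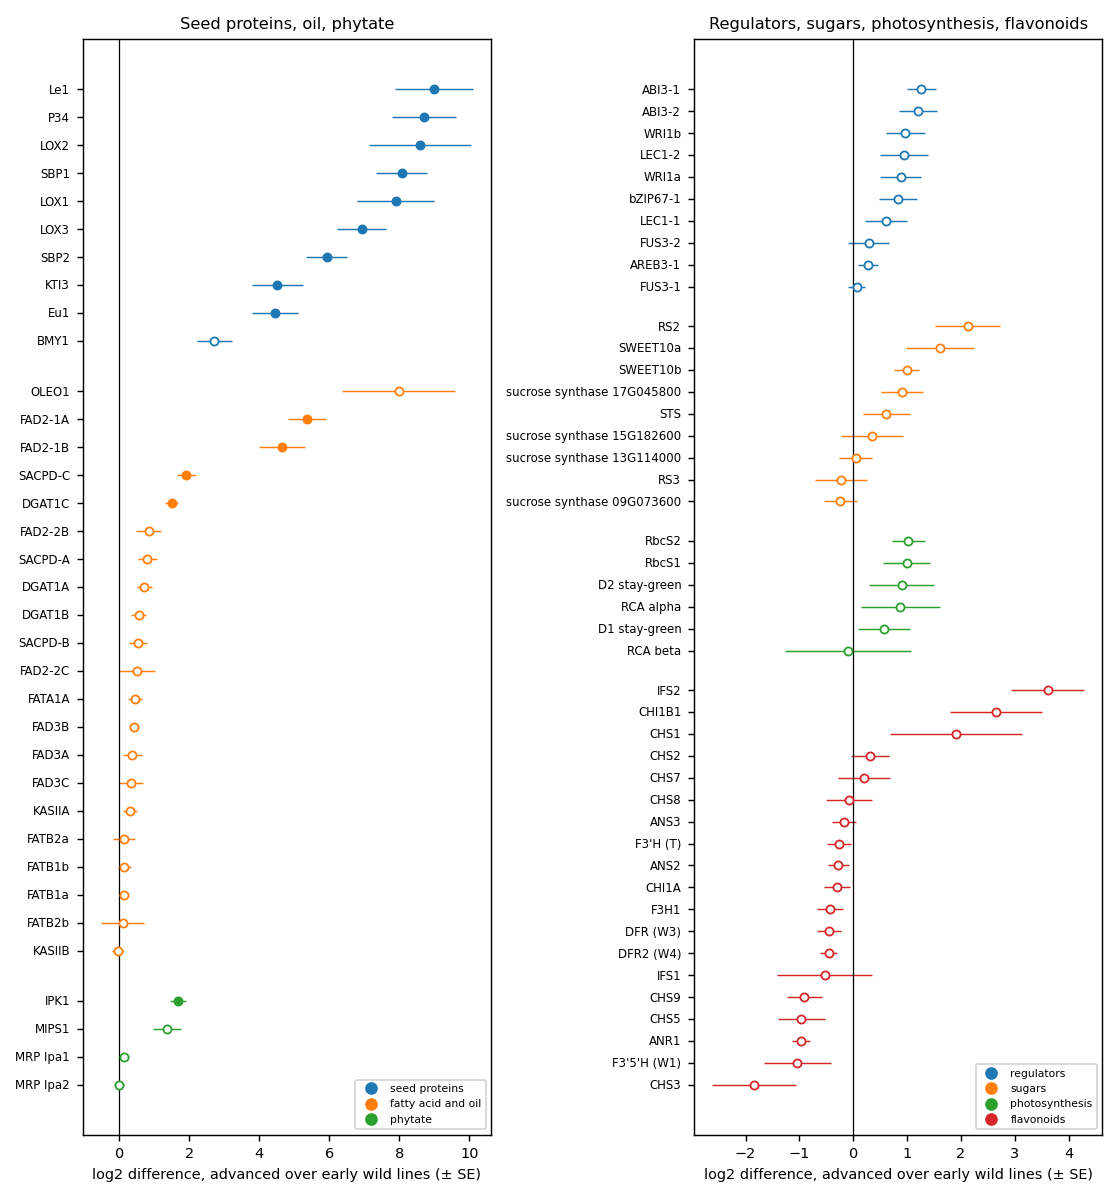
Log2 difference of advanced over early wild lines, with its SE, for each tested gene of 7 lists; filled points were called (edgeR adjusted p under 0.05) and open points were not. The seed proteins lie at 2.71 to 8.98 and the FAD2-1 pair near 5, with OLEO1 at 7.98 and IFS2 at 3.605, both not called. The list medians were 0.50 for oil, 0.61 for sugar and -0.31 for flavonoid genes.

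Of 9 sugar genes 0 were called by edgeR (4 at an unadjusted p under 0.05, beside 14.6% of all genes), 2 by DESeq2 and 0 by limma voom. SWEET10b (Glyma.08G183500), a sugar exporter of the seed coat, had 578, 502, 528 and 375 CPM in the advanced lines, against 227, 304 and 216 CPM in ys34, ys29 and ys16 (log2 difference 0.99, SE 0.23). Its partner SWEET10a (Glyma.15G049200) had 101, 80.9 and 62.7 CPM in ys1, ys23 and ys26 but 12.8 CPM in ys17, within the 10.6 to 28.5 CPM of the early lines. The sucrose synthase gene Glyma.13G114000, whose enzyme splits incoming sucrose, had 508 to 1048 CPM in advanced lines and 580 to 948 CPM in early lines. The raffinose synthase gene RS2 (Glyma.06G179200) had 5.71 to 9.35 CPM in advanced lines and 0.333 to 3.41 CPM in early lines, without overlap.

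Of 20 flavonoid genes 19 were tested. By edgeR 0 were called (6 at an unadjusted p under 0.05, beside 14.6% of all genes), DESeq2 called 2 higher and 1 lower, and limma voom 0. Positive differences were fitted for 5 of the 19, beside 16253 of all 31770 genes. Of the 19, 4 lay lower in every advanced than in every early line, where 6.29% of all tested genes did. In the higher direction 2 were without overlap, CHI1B1 and IFS2 (given below), where 8.02% of all tested genes were. CHI1B1 (Glyma.20G241600) had 3.58 to 18.96 CPM in advanced lines and 0.133 to 3.26 CPM in early lines (log2 difference 2.64, SE 0.85, not called). ANR1 (Glyma.08G062000), an enzyme of proanthocyanidin synthesis in the seed coat, had 287, 252, 323 and 268 CPM in ys1, ys23, ys26 and ys17, against 538, 559 and 561 CPM in ys34, ys29 and ys16 (log2 difference -0.97, SE 0.17). All 3 early lines lay above all 4 advanced lines, but edgeR did not call the gene. It was called lower without ys17, under a stricter filter and by DESeq2. F3H1 (Glyma.02G048400), at the entry of the flavonol and anthocyanin branch, had 690 to 1136 CPM in advanced lines and 1160 to 1470 CPM in early lines. DFR2 of the W4 flower colour locus (Glyma.17G252200) had 60.7 to 81.5 CPM in advanced lines and 93.2 to 111 CPM in early lines. Without overlap in the higher direction, IFS2 (Glyma.13G173500), an isoflavone synthase, had 11.1, 46.8, 16.5 and 7.73 CPM in the advanced lines, against 1.26, 2.15 and 1.63 CPM in the early lines (log2 difference 3.605, SE 0.67, not called). IFS1 (Glyma.07G202300), its relative, overlapped, with 35.2 CPM in ys16 and at most 11.9 CPM in any other wild line. The chalcone synthases CHS7 (Glyma.01G228700) and CHS8 (Glyma.11G011500) were lowest in ys29, at 170 and 87.0 CPM, and at 604 CPM or more and 209 CPM or more in the other wild lines.

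Markers of the seed coat did not move as 1 block. The 7 listed genes, of which the SWEET10 pair and ANR1 also stand in other lists, summed to 809 to 1400 CPM in advanced lines and 917 to 988 CPM in early lines and overlapped. None of them was at 0 in any wild line. G (Glyma.01G198500), a gene behind seed dormancy and green seed coats, was called higher, at 11.4 to 15.2 CPM in advanced lines and 5.85 to 6.86 CPM in early lines, a 2.09-fold difference. Its call was lost without any 1 of the wild lines other than ys17, with a slope on glycinin in place of the split, and by limma voom. The coat peroxidase gene Ep (Glyma.09G022300) had 413 and 374 CPM in ys1 and ys23, but 168 and 129 CPM in ys26 and ys17, against 126, 28.3 and 172 CPM in the early lines. The 6 genes of the photosynthesis list, which takes in the stay-green genes D1 and D2, summed to 702 to 1019 CPM in advanced lines. The sum was 331, 294 and 679 CPM in ys34, ys29 and ys16, without overlap. RbcS1 (Glyma.13G046200) and RbcS2 made up most of it, and each of the others stayed at 14.8 CPM or less in wild lines. By itself only RbcS2 was without overlap, and RCA beta (Glyma.11G221000) had a log2 difference of -0.10. The small Rubisco subunit gene RbcS2 (Glyma.19G046800) had 548 to 694 CPM in advanced lines and 202 to 478 CPM in early lines, and 0 of the 6 genes were called by edgeR (2 at an unadjusted p under 0.05, beside 14.6% of all genes), 1 by DESeq2 and 0 by limma voom.

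By edgeR 0 of 14 genes tied to organ or seed size were called (3 at an unadjusted p under 0.05, beside 14.6% of all genes), by DESeq2 3 and by limma voom 0. GA20OX (Glyma.07G081700), an enzyme of gibberellin synthesis, had 56.3, 78.9, 34.9 and 25.5 CPM in ys1, ys23, ys26 and ys17, against 0.998, 3.93 and 12.2 CPM in ys34, ys29 and ys16 (log2 difference 3.06, SE 0.75). ST05 (Glyma.05G244100), linked to seed thickness, had 102 to 278 CPM in advanced lines and 43.2 to 92.0 CPM in early lines. The cytochrome P450 gene CYP78A57 (Glyma.02G119600) had 800 to 1174 CPM in advanced lines and 430 to 691 CPM in early lines, without overlap, and CYP78A72 (Glyma.19G240800) was as low as 17.6 CPM in ys1 and 9.07 CPM in ys17, with 115 to 216 CPM in the other wild lines. SSS1 (Glyma.19G196000) lay between 16.9 and 19.7 CPM in every wild line. The PEAPOD genes PPD1 (Glyma.10G244400) and PPD2 (Glyma.20G150000), which limit organ growth, had log2 differences of 0.28 and 0.19. Of 5 genes used as constant references in soybean, ACT11 (Glyma.18G290800) had 116 to 147 CPM in advanced lines and 114 to 137 CPM in early lines. TUB4 (Glyma.03G124400) had 220 to 479 CPM in advanced lines and 141 to 182 CPM in early lines. CYP2 (Glyma.12G024700) had 728 to 1090 CPM in advanced lines and 573 to 655 CPM in early lines. TUB4 and CYP2 were without overlap, as were 8.02% of all genes in the higher direction. All 5 references had positive fitted differences, with a median of 0.29 on the log2 scale and 0.98 for TUB4. By edgeR 0 of the 5 were called (2 at an unadjusted p under 0.05, beside 14.6% of all genes), by DESeq2 2 and by limma voom 0.

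Clock genes divided the wild lines in another way. LHY2b (Glyma.03G261800), a MYB gene of the clock whose Arabidopsis relative peaks in the morning, had 82.4 CPM in the advanced line ys26 and 94.0 CPM in the early line ys16, but 0.528 to 2.15 CPM in the other 5 wild lines. LHY2a (Glyma.19G260900) had 36.3 CPM in ys26 and 38.1 CPM in ys16, against 1.22 to 2.57 CPM in the other 5. LHY1a (Glyma.16G017400) and LHY1b (Glyma.07G048500) were likewise highest in these 2 lines, at 117 and 50.8 CPM in ys26 and at 146 and 80.0 CPM in ys16. Of the genes whose Arabidopsis relatives act later in the day, PRR3a, PRR3b, GI, LUX1 and ELF3 were lowest in the same 2 lines, but LUX2 (Glyma.11G136600) was not: it had 21.6 CPM in ys26 and 9.56 CPM in ys16, against 17.1 to 46.6 CPM in the other 5. PRR3b of the Tof12 locus (Glyma.12G073900) had 11.3 CPM in ys26 and 29.2 CPM in ys16 against 44.9 to 84.5 CPM in the other 5, and GI of the E2 locus (Glyma.10G221500) had 47.3 CPM in ys26 and 40.1 CPM in ys16 against 106 to 115 CPM in the other 5. Each set held 1 such line. By edgeR 0 of 12 tested clock genes were called. With ys16 and ys26 left out, an alternative added once the values were known, 264 genes were called higher and 45 lower. By DESeq2 and limma voom 0 clock genes were called as well, and 0 had an unadjusted p under 0.05 by edgeR.

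**Figure D3:**
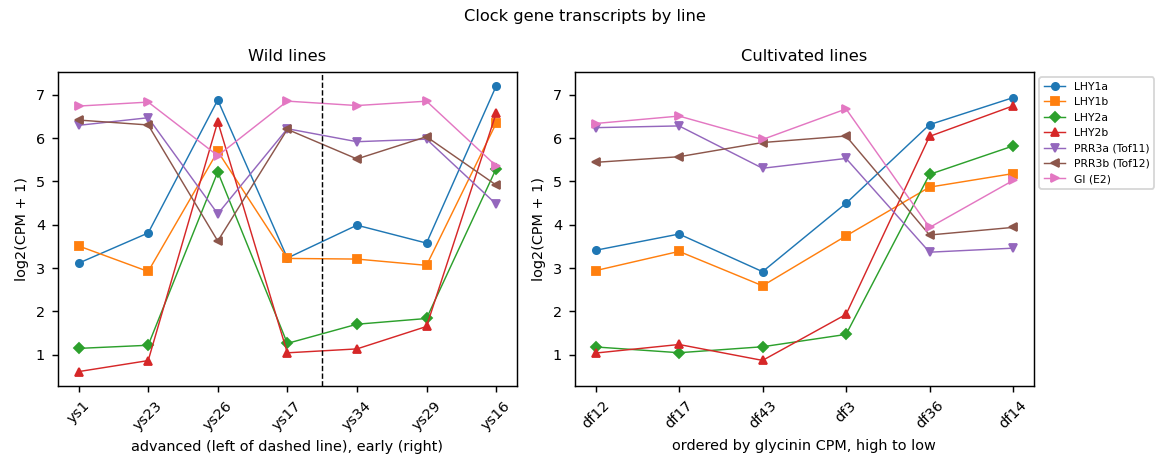
Transcript level, as log2(CPM + 1), of 7 clock genes by line, with wild lines on the left (4 advanced lines left of the dashed line, 3 early lines right of it) and the 6 cultivated lines on the right, ordered by glycinin CPM. LHY genes are high and PRR3 and GI genes low in ys26 and ys16, 1 line of each wild set, and in the 2 cultivated lines with the least glycinin.

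Over all tested genes the wild lines resembled each other partly along the split and partly across it. Pearson's r of log2(CPM + 1) over 31770 genes was highest between the advanced lines ys1 and ys23 (0.959) and between the early lines ys34 and ys29 (0.955). The early line ys16 was closer to the advanced line ys26 (0.945) than to ys34 (0.938) or ys29 (0.939). The highest r of ys17 was 0.926, with ys1. It had 34 genes at least 4-fold above every other wild line after adding 1 CPM, where no other wild line had more than 12. In the other direction it had 12 genes at least 4-fold below every other wild line, the fewest of the 7, and the others 14 to 23. Within the advanced set, ys17 was the lowest line for 95 of the 177 higher genes (53.7%), beside 31.9% of all tested genes. Within the early set, ys16 was the highest line for 102 of the 177 (57.6%), beside 36.8% of all tested genes. Of its own set, each of these 2 lines also had the least Glyma.03G163500, but the early lines lay close, at 6.01 to 7.17 unscaled CPM. Over the globulin genes ys34, not ys16, had the smallest share of counts among the early lines.

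Genes outside the lists are given by identifier only, since nothing in the files pairs them with products. The rule for naming them was met by 126 higher and 20 lower genes, of which the 2 most extreme in each direction are named. Glyma.08G342200 had 35.5, 32.9, 10.2 and 28.3 CPM in ys1, ys23, ys26 and ys17 and 0 counts in every early line. By counts pooled over each set it was at least 506-fold higher in the advanced lines when 3 counts are allowed over the early set. Each cultivated line had at least 2.99 CPM of Glyma.08G342200, whatever its glycinin level. Glyma.12G213600 had 76.1, 16.4, 25.95 and 14.5 CPM in the advanced lines and 1 count over the 3 early lines. Its ratio of pooled counts was 1937, with a 95% counting interval of 347 to 76540 (exact binomial) that leaves out the spread between lines. By edgeR it was 1328-fold higher. Glyma.10G222500 had 26.04, 7.97, 27.1 and 24.9 CPM in the advanced lines, against 130, 129 and 121 CPM in ys34, ys29 and ys16. By edgeR its level was 5.897-fold lower in the advanced lines. Glyma.17G054500 had 2.54 to 5.43 CPM in the advanced lines, against 25.3, 45.5 and 11 CPM in ys34, ys29 and ys16. By edgeR its level was 7.65-fold lower in the advanced lines.

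The 6 cultivated lines, which the split did not use, allowed a test of whether the same genes go with glycinin. There the level of each gene was fitted on the log10 glycinin CPM (plus 1) of the line, without sorting the lines, over 27944 genes. Of these, 51 rose and 10 fell with glycinin, or 0.183% and 0.0358% (edgeR, adjusted p under 0.05). Of the 177 genes higher in advanced wild lines, 143 could be tested, and 27 of them (18.9%) rose with glycinin in the cultivated lines. These 27 were 52.9% of all 51 genes that rose there. A positive slope was fitted for 139 of the 143 (97.2%), beside 50.1% of all genes. At an unadjusted p under 0.05, 99 (69.2%) rose, beside 4.41% of all genes. Of the 24 genes lower in advanced wild lines, 22 were tested and 21 had a negative slope, but 0 passed by edgeR. At an unadjusted p under 0.05, 8 of the 22 (36.4%) fell, beside 4.43% of all genes. The share of these lower genes ran from 13.6% without df14 to 68.2% without df43. In either direction, 2124 of all 27877 genes had an unadjusted p under 0.05 without df14, and 2999 of 28372 without df43. After adjustment, with all 6 lines, DESeq2 called 2 of the 22 and limma voom 0, beside 0.784% and 0.0358% of all genes.

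Among seed proteins, 5 of the 8 that could be tested rose with glycinin in cultivated lines, beside 0.183% of all genes. SBP1 had 1914 CPM in df12, 370 CPM in df17, 206 CPM in df43, 35.8 CPM in df3, 41.1 CPM in df36 and 5.68 CPM in df14, lines given in falling order of glycinin. Its slope was 2.03 on the log2 scale per 10-fold more glycinin (SE 0.23, edgeR adjusted p = 0.00902). LOX2 rose by 2.47 (edgeR adjusted p = 0.0174), LOX3 by 2.13 (edgeR adjusted p = 0.0349), SBP2 by 1.88 (edgeR adjusted p = 0.0454) and Le1 by 1.44 (edgeR adjusted p = 0.0349). Le1 was never as low there as in the early wild lines, with 31.4 CPM in df14. KTI3 had a slope of 1.12 and did not pass (edgeR adjusted p = 0.0930). P34 and LOX1 fell below the filter on low counts, although P34 had 3172 CPM in df12 and 0.413 CPM in df14.

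Of the oil genes, FAD2-1A and FAD2-1B rose with glycinin in cultivated lines, with slopes of 1.47 (SE 0.198) and 1.24 (SE 0.163) and an edgeR adjusted p of 0.0218 each. FAD2-1B had 899, 420, 129, 178, 67.9 and 32.3 CPM in df12, df17, df43, df3, df36 and df14. The other 2 oil genes called in wild lines did not pass there: DGAT1C had a slope of 0.56 (edgeR adjusted p = 0.111) and SACPD-C of 0.51 (edgeR adjusted p = 0.387). Likewise IPK1 had a slope of 0.63 (edgeR adjusted p = 0.112), and ANR1 of -0.32 (edgeR adjusted p = 0.578). The G gene, called higher in the advanced wild lines, had a slope of 0.09 in cultivated lines (edgeR adjusted p = 0.871) and stood between 8.67 and 13.4 CPM there. Outside the lists, Glyma.08G342200 had a slope of 0.56 and did not pass (edgeR adjusted p = 0.357). It had 26.6 CPM in df12, 11.2 CPM in df36 and 2.99 CPM in df14. Glyma.17G054500 had a slope of -0.52 (edgeR adjusted p = 0.632) and Glyma.10G222500 of -1.34 (edgeR adjusted p = 0.0864). Glyma.12G213600 fell below the filter on low counts, with 131 CPM in df12 and 0 CPM in df36 and df14.

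The cultivated calls leaned on few lines. Without df12, 1 gene rose and 4 fell, and all 7 calls of seed protein and FAD2-1 genes were lost (edgeR adjusted p of 0.138 to 0.559), with slopes then between 1.196 and 2.003. Of the wild higher genes, 1 of 145 then passed, 57 (39.3%) rose at an unadjusted p under 0.05, and 131 (90.3%) had a positive slope. Over all 28555 genes of that fit, 1308 had an unadjusted p under 0.05 in either direction, and the median slope was 0.00667. Without df14, 14 genes rose and 3 fell, and without df36 22 rose and 1 fell. The 2 cultivated lines with the least glycinin, df36 and df14, were also those with high LHY2b, at 64.8 and 106 CPM against 0.828 to 2.82 CPM in the other 4. LHY2b, LHY2a and LHY1a fell with glycinin in cultivated lines (edgeR adjusted p of 0.0218, 0.0292 and 0.0409), and the wild log2 difference of LHY2b was -0.64 (SE 1.87), with a range of -5.34 to 3.65 over the alternatives. All 3 calls were lost without df36 and df14 (edgeR adjusted p up to 1.0). Without df36 and df14 no gene passed by edgeR (1354 of 28353 at an unadjusted p under 0.05, in either direction). In that fit 159 of 162 wild higher genes had positive slopes (98.1%), beside a median slope of -0.0157 over all genes.

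**Figure D4:**
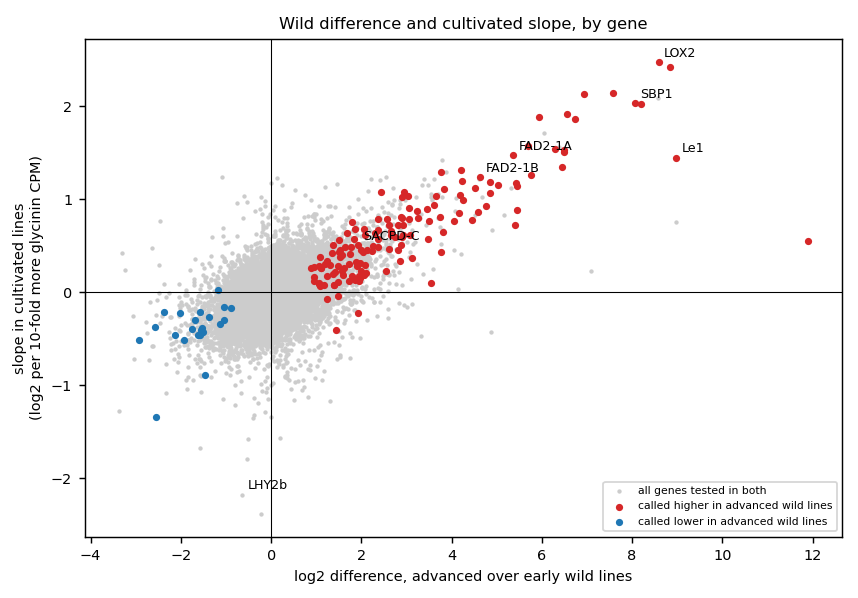
For each gene tested in both fits, the log2 difference of advanced over early wild lines (horizontal) and the slope in the 6 cultivated lines, in log2 units per 10-fold more glycinin CPM (vertical). Red points were called higher and blue points lower in advanced wild lines; 139 of 143 red points lie above 0 and 21 of 22 blue points below 0.

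The slopes on glycinin were then compared between wild and cultivated lines. In a fit over all 13 lines, 0 of 31411 genes differed in slope between wild and cultivated lines by edgeR, or 0%, and 1151 (3.66%) had an unadjusted p under 0.05. DESeq2 called 3 genes with a more positive and 4 with a more negative slope in wild than in cultivated lines, and limma voom 0. Among the listed genes Le1 came closest, with a slope steeper in wild lines by 1.63 on the log2 scale (SE 0.28, edgeR adjusted p = 0.502). LHY2b had a difference of 1.99 (SE 0.94, edgeR adjusted p = 0.981). These p-values do not show that the slopes are alike.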

How the data were processed

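Seed RNA of 13 field-grown soybean lines was sequenced from stranded mRNA libraries, per the labels' protocols. The submitters' processing notes list edgeR, SAMtools, TopHat2 and Trim Galore (version 0.3.3) and give them no roles. For the counting tool, the build and the annotation, nothing is named in the labels or the table. Values deposited by the authors are raw read counts, whole numbers, for 43517 genes, and the treatment of shared or antisense reads is not stated. None of 59365 rows of the RefSeq table (Glycine soja ASM419377v2) matched an identifier, so no position or sequence is given, and gene names come from published identifiers.

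The split, the 12 gene lists and their members were chosen with earlier results of these data known. Of 131 listed identifiers 127 had rows. Genes outside the lists were named where called, with at least 10 mean CPM in the higher set and no overlap, and the 2 largest differences per direction were taken. No 2 libraries were duplicates (lowest chi-square per degree of freedom 21.8). Fits used edgeR 4.0.16 (quasi-likelihood, TMM, expression filter, Benjamini-Hochberg at 0.05 over all genes) in R 4.3.3, with DESeq2 1.42.0, limma 3.58.1, other scalings and filters and each line left out as alternatives. An SE is the log2 difference over the square root of F. The cultivated filter asked for enough counts in all 6 lines. Each main edgeR fit was also run on simulated counts, with results not given here, and the alternatives were not. Single values were compared with scipy 1.17.1, tables made in Python 3.11.15 with pandas 2.3.3 and numpy 2.4.6, and figures drawn with matplotlib 3.10.9. Nothing says that a line was sampled more than once, so p-values measure the spread between these samples.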

Additional observations from a re-analysis of the deposited data

Results flagged for a closer look

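Among 118 genes of the lists and the named identifiers, 14 (11.9%) had 1 of the 4 advanced lines farther from the others than Dixon's 95% limit allows on the log2(CPM + 1) scale, where chance gives about 5%. The genes are not independent, and 5 of the 14 are clock genes that set ys26 apart. There ys26 lay above the other advanced lines for LHY2a (36.3 CPM) and LHY2b (82.4 CPM) and below them for PRR3a of the Tof11 locus (Glyma.U034500, 18.1 CPM), PRR3b (11.3 CPM) and GI (47.3 CPM). It was also lowest for SACPD-C (224 CPM). ys17 lay below the other advanced lines for P34 (113 CPM), SBP1 (224 CPM), LOX2 (6.55 CPM), SACPD-B (48.9 CPM) and ACT11 (116.5 CPM). Among the advanced lines CHS8 was lowest in ys1 (209 CPM). PP2C-1 (Glyma.17G221100), a phosphatase gene linked to seed weight, was lowest of them in ys23 (10.2 CPM), as was Glyma.10G222500 (7.97 CPM).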

How the results depend on the processing

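Between advanced and early wild lines, 177 genes were called higher and 24 lower. These counts became 1314 and 503 by DESeq2, 80 and 8 by limma voom, 332 and 75 with a slope on glycinin in place of the split, and 264 and 45 without ys16 and ys26. Leaving out 1 line gave 29 to 446 higher and 0 to 133 lower. In cultivated lines, 51 genes rose and 10 fell. These counts became 94 and 29 with no filter, 324 and 219 by DESeq2, 64 and 20 with all globulin genes as the covariate, and 0 and 0 without df14 and df36. Leaving out 1 line gave 1 to 51 and 1 to 16. For the slope difference DESeq2 called 3 and 4 genes, and every other alternative run called 0. Among recomputed values of single genes, 42 cultivated slopes lost their call, and 100 wild differences moved beyond the spread between lines or changed sign. The sign changed in 65 values of 26 genes, none of them called in the wild lines, and in 0 cultivated slopes. The cause was not tested, other than that fewer lines or other genes enter some fits. No paired analysis was possible because the replicate numbers are only names given in accession order and each line is a different genotype. With 7 and 6 lines, single lines decide how many genes pass.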

Other observations

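Of 4 further clock and light-response genes, 2 set ys26 and ys16 apart. ELF3 of the J locus (Glyma.04G050200) had 10.2 CPM in ys26 and 7.37 CPM in ys16, with 16.1 to 30.1 CPM in the other 5 wild lines. LUX1 (Glyma.12G060200) had 2.47 CPM in ys26 and 3.30 CPM in ys16, with 7.53 to 22.4 CPM in the other 5. The phytochrome genes did not: PHYA3 of the E3 locus (Glyma.19G224200) had 5.30 CPM in ys26 and 5.0 CPM in ys16, with 3.54 to 5.65 CPM in the other 5. PHYA2 of the E4 locus (Glyma.20G090000) had 23.7 CPM in ys26 and 27.4 CPM in ys16, with 21.3 to 31.7 CPM in the other 5.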
